A study of Mus musculus with 8 samples.

Results

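Cdk inhibitors and BTG/Tob genes are the brakes of the cell division cycle, and 10 of them were followed here through 8 RNA libraries of mouse helper T cells. The genes were chosen by name among 39179 listed genes: the Cip/Kip inhibitors Cdkn1a and Cdkn1b, the INK4 inhibitors Cdkn2c and Cdkn2d, the antiproliferative genes Btg1, Btg2, Tob1 and Tob2, the unconventional cyclin gene Ccng2 and the retinoblastoma gene Rb1. The rule is a list of names and sets no threshold on a measured value, but the list was drawn up with earlier results of these data known. All 10 had an Ensembl ID in the files and all 10 passed the filter on low counts, which left 11475 genes to test.

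The T cells came from Smarta mice, whose receptor is a transgene, crossed to CreERT2 mice, and had been transduced with a retrovirus that was either empty or carried inducible Bach2, a transcriptional repressor of lymphocytes. They were given to C57BL/6 hosts, which keep their own lymphocytes, and primed under the skin with nitrophenol and GP61-80 on mouse serum albumin. All groups received the vector, the transfer and the same immunization, and induction was by tamoxifen on day 5. Cells were taken 18 hours later, on day 6, from pooled groin nodes and sorted as Thy-1.1+ CD44hi and either CXCR5+ PD-1+ (Tfh, the helper cells of the B cell follicle) or CXCR5- PD-1- (non-Tfh). The 4 groups were therefore Tfh with empty vector (EV_TFH), Tfh with Bach2 (Bach2_TFH), non-Tfh with empty vector (EV_nonTFH) and non-Tfh with Bach2 (Bach2_nonTFH), with 2 libraries in each. The labels give no animal age or sex and do not say whether the libraries of a group are separate animals, so p-values measure only the spread between these libraries.

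Division is driven by cyclin-dependent kinases. INK4 proteins block the kinases that pair with D-type cyclins, Cip/Kip proteins bind cyclin E and cyclin A kinases, and Rb1 holds E2F factors inactive until these kinases phosphorylate it. BTG and Tob proteins bind the CCR4-NOT deadenylase, which shortens the poly(A) tails of mRNAs and so speeds their decay. In T cells, BTG and Tob genes are known for keeping resting cells quiescent, and p27 (Cdkn1b) and p18 (Cdkn2c) for limiting expansion after activation.

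With the Bach2 vector the brakes did not move as a block. Cdkn1a, which encodes p21, fell in both cell types, from a mean of 20.97 to 9.19 CPM (counts per 1000000 counts, scaled by trimmed mean of M-values) in Tfh and from 46.7 to 20.9 CPM in non-Tfh cells. Btg1 rose in both, from 542 to 762 CPM in Tfh and from 641 to 891 CPM in non-Tfh cells. Btg2 passed the test for a rise in Tfh cells (0.35 on the log2 scale), a call lost in most alternative analyses. Its estimate in non-Tfh cells was also above 0 (0.13), and the difference between the cell types did not pass. Set against non-Tfh cells, Tfh cells had less Cdkn1a, Btg1, Btg2 and Tob1 and more Cdkn2c, with either vector. The calls of Btg1 with either vector, and those of Btg2 and Tob1 with Bach2, did not hold in all alternative analyses. Ccng2, Rb1, Tob2, Cdkn1b and Cdkn2d passed the test in none of the comparisons.

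**Figure D1:**
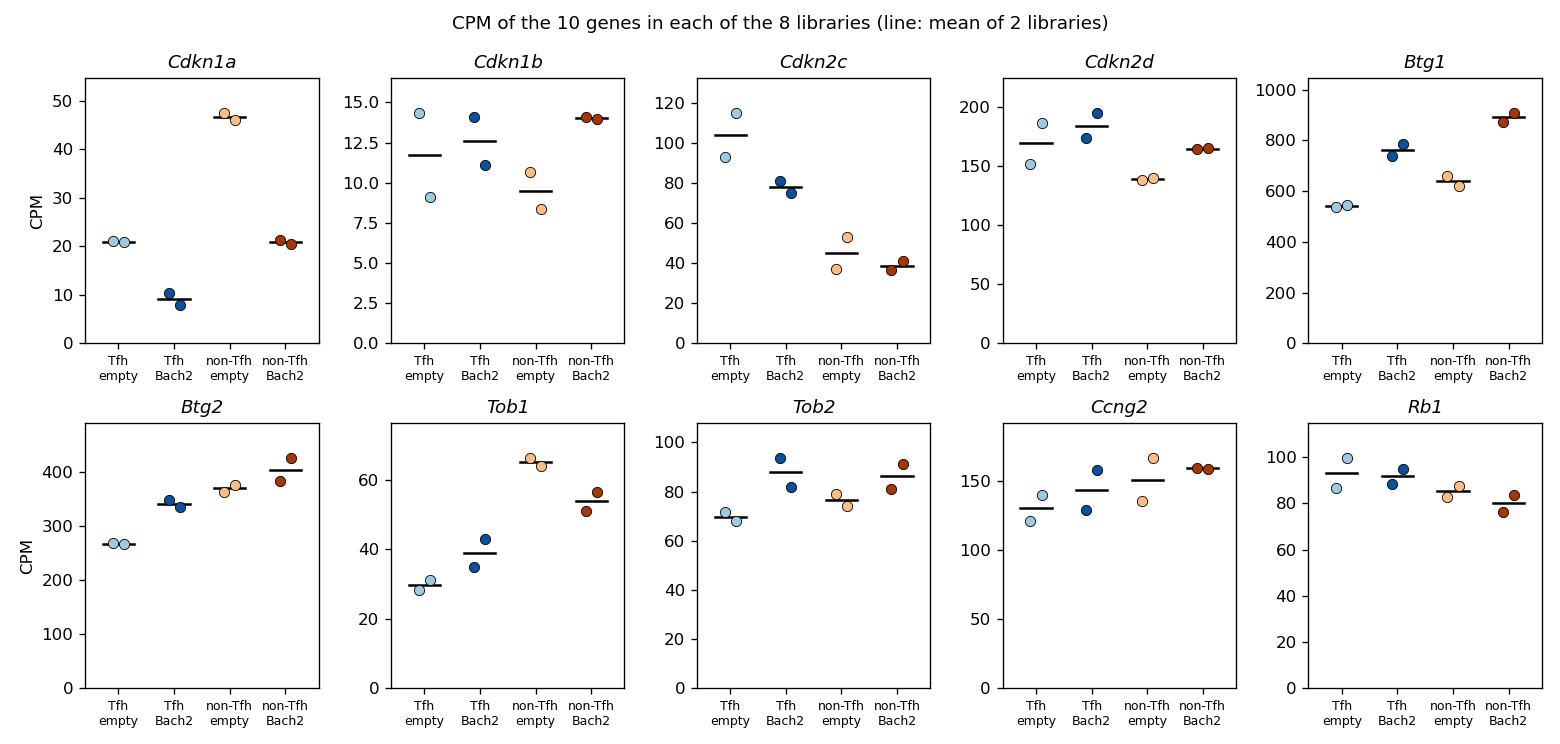
CPM of each gene (y axis, from 0) in the 8 libraries, by group (x axis); points are libraries and the line is the mean of the 2 libraries of a group. The Cdkn1a points of Tfh cells with Bach2 (7.97 and 10.4 CPM) lie below all other libraries, and the Btg1 points of each Bach2 group lie above those of the matching empty vector group.

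Library totals ran from 7862879 to 9889859 counts, and the lowest count of any of the 10 genes in a library was 66, for Cdkn1a. Bach2 itself was 12.6 ± 1.99 CPM in Tfh cells with empty vector and 127.8 ± 9.85 CPM with its vector (SD, n = 2), and 26.9 ± 2.87 against 144.0 ± 19.1 CPM in non-Tfh cells. The sort marker Cxcr5 was 754 and 612 CPM in the means of the Tfh groups (empty vector, then Bach2) and 22.8 and 20.4 CPM in those of the non-Tfh groups. Pdcd1, the gene of PD-1, was 557 and 497 CPM in Tfh and still 182 and 112 CPM in the cells sorted as PD-1-. Icos ran the other way, at 666 and 564 CPM in Tfh and 927 and 667 CPM in non-Tfh cells. The 5 Tfh markers (with Bcl6 and Il21) summed to 2327 to 2612 CPM with empty vector and 1853 to 2156 CPM with Bach2 in Tfh libraries, and to 1175 to 1252 and 785 to 890.4 CPM in non-Tfh libraries. Of the markers of other cells, the 5 of B cells summed to between 2.05 and 11.3 CPM in a library, and the 2 of CD8 T cells to 13.3 to 20.4 CPM, nearly all of it Cd8b1 (13.1 to 20.2 CPM), with Cd8a at most at 0.764 CPM. Also detected were Klrb1c (9.01 to 93.9 CPM, highest in Tfh cells with Bach2, while the NK gene Ncr1 was at 0 in all 8) and Pecam1 (176 to 280.2 CPM, while Pdgfra was at 0 in all 8). The 4 dendritic cell markers summed to 2.21 to 4.68 CPM in the Tfh libraries and 6.88 to 12.7 CPM in the non-Tfh libraries, and the 6 myeloid markers to 4.21 to 12.5 CPM. Their part in the results was not tested. In bulk libraries such as these, fewer cells with a transcript and less of it in each cell cannot be told apart.

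Cip/Kip inhibitors. Cdkn1a (ENSMUSG00000023067; GRCm38 chromosome 17, 29090976 to 29100727, plus strand) encodes p21, the inhibitor that p53 is best known for inducing. It was at 21.1 and 20.9 CPM in the 2 Tfh libraries with empty vector and at 10.4 and 7.97 CPM in those with Bach2. In non-Tfh libraries it was at 47.4 and 46.0 CPM with empty vector and at 21.4 and 20.5 CPM with Bach2. The 4 groups thus ran in order from non-Tfh with empty vector at the top to Tfh with Bach2 at the bottom. The groups in between, Tfh with empty vector and non-Tfh with Bach2, overlapped.

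Bach2 changed Cdkn1a by -1.18 on the log2 scale in Tfh cells (SE 0.169, adjusted p = 0.00571) and by -1.16 in non-Tfh cells (SE 0.148, adjusted p = 0.00193). These and all later adjusted p-values come from the quasi-likelihood test of edgeR, with Benjamini-Hochberg adjustment over all tested genes. By p-value it ranked 12 and 11 of 11475 genes. These 2 comparisons contrast different libraries, but the same fit over all 8 libraries gave the spread for both. The labels also do not say whether the Tfh and non-Tfh libraries of a vector were sorted from the same pooled nodes. Same-numbered Tfh and non-Tfh libraries deviated from their group means together (r across genes of 0.208 with empty vector and 0.240 with Bach2), so the 2 results may not be independent. The difference between the effects was -0.03 (95% interval -0.50 to 0.45, adjusted p = 0.998). Averaged over both cell types the effect was -1.17 (SE 0.112, adjusted p = 0.000139), which ranked 4 among all genes. Cdkn1a stayed past the threshold in 14 of 14 alternative analyses in each cell type, among them every fit with 1 library left out, with adjusted p up to 0.0466 in Tfh and 0.0397 in non-Tfh cells.

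Cdkn1a also differed between the cell types. The log2 fold change of Tfh over non-Tfh was -1.15 with empty vector (SE 0.149, adjusted p = 6.81e-05), and with Bach2 it was -1.18 (SE 0.168, adjusted p = 0.000156). Each cell type comparison shares a group with each vector comparison, so these values are not independent of those above. A transcript annotated on the opposite strand (AC167363.2) overlaps 273 bases of Cdkn1a exons, and the library kit does not mark strand, so reads from it would count as Cdkn1a.

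RefSeq gives 2 start windows for Cdkn1a (250 bases before to 50 after the start, GRCm38.p6, plus strand), printed because this gene had the largest change after Bach2 of the 10. Capitals mark the paired cores of a full p53 site, CATGNNNNNNCATG.
Cdkn1a upstream start, chr17:29090729-29091028: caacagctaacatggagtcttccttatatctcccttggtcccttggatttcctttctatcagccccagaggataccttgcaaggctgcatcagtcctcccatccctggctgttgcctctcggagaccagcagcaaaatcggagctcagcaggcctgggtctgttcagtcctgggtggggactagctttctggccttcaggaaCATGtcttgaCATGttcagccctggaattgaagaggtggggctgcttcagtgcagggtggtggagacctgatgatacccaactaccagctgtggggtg
Cdkn1a downstream start, chr17:29093519-29093818: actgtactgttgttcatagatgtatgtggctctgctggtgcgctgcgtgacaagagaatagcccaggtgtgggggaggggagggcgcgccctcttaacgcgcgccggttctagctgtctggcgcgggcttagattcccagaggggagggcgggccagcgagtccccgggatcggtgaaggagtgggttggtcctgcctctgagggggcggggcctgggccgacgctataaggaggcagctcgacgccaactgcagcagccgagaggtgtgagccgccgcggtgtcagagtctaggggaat
The upstream window held the paired p53 cores, beginning 48 bases before its start (position -48), and the downstream window did not. That pattern, chosen after the windows were read, was in 0.712% of 32851 RefSeq windows of the same length. Neither window held TGANTCA, the core that Bach and AP-1 factors bind (in 7.81% of all windows), the forkhead core GTAAACA (3.65%) or the E2F core GCGGGAA (4.600%), on either strand. A match is a description of letters, and the counts do not say which start was used.

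Cdkn1b (chromosome 6, 134920401 to 134925513) encodes p27, the inhibitor that accumulates in resting cells. Per kilobase of exon its mean over the 8 libraries was the lowest of the 10 genes. Tfh libraries held 14.3 and 9.11 CPM with empty vector and 14.1 and 11.1 CPM with Bach2. Non-Tfh libraries held 10.7 and 8.35 CPM with empty vector and 14.1 and 13.98 CPM with Bach2. The Tfh groups overlapped and the non-Tfh groups did not, but neither change passed the test. The log2 fold change was 0.09 in Tfh (95% interval -0.42 to 0.61, adjusted p = 0.896) and 0.56 in non-Tfh cells (95% interval 0.04 to 1.08, adjusted p = 0.440). Because Cdkn1a and Cdkn1b differ in length, their balance was set per kilobase of exon. On that scale Cdkn1a made up 86.3 ± 1.796% of the pair in non-Tfh cells with empty vector and 65.6 ± 0.600% with Bach2 (SD, n = 2). In Tfh cells it made up 69.9 ± 6.58% with empty vector and 48.3 ± 0.511% with Bach2.

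INK4 inhibitors. Cdkn2c (ENSMUSG00000028551; chromosome 4, 109660876 to 109667189, minus strand), which encodes p18, followed the cell type. It stood at 93.3 and 115 CPM in Tfh libraries with empty vector, against 37.3 and 53.3 CPM in the non-Tfh libraries. With Bach2 the values were 81.1 and 74.9 CPM in Tfh and 36.5 and 41.2 CPM in non-Tfh cells. All 4 Tfh libraries lay above all 4 non-Tfh libraries. Tfh exceeded non-Tfh cells by 1.20 on the log2 scale with empty vector (SE 0.159, adjusted p = 0.000145) and by 1.01 with Bach2 (SE 0.161, adjusted p = 0.000596). The difference passed in 14 of 14 alternatives with each vector. It ran opposite to Cdkn1a, Btg1, Btg2 and Tob1, the other genes of the 10 that differed between the cell types.

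After Bach2, Cdkn2c was estimated at -0.42 in Tfh (95% interval -0.75 to -0.08, adjusted p = 0.205) and -0.22 in non-Tfh cells (95% interval -0.58 to 0.14, adjusted p = 0.709), neither past the threshold. Its RefSeq window at the upstream start (GRCm38.p6, minus strand) is printed as that of the 1 gene of the 10 that was higher in Tfh cells, with the E2F core in capitals.
Cdkn2c, chr4:109666707-109667006: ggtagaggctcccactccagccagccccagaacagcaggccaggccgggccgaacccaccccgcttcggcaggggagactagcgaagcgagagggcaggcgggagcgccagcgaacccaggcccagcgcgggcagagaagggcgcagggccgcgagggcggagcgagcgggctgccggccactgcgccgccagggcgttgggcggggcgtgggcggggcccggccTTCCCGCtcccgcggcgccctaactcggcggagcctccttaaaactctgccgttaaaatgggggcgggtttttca
The core, read as GCGGGAA on the other strand, began at position -25, and it was also found in the Tob2 window at position -125.

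Cdkn2d (chromosome 9, 21288410 to 21291407) encodes p19, the second INK4 inhibitor of this set. It ranged from 138 to 195 CPM over the 8 libraries. With empty vector the 2 Tfh libraries (152 and 187 CPM) lay above the 2 non-Tfh libraries (138 and 140.1 CPM), with a log2 fold change of 0.28 that missed the threshold (SE 0.102, adjusted p = 0.0639). With Bach2 the values were 173 and 195 CPM in Tfh and 164 and 165 CPM in non-Tfh cells. The Bach2 effect was 0.12 in Tfh (95% interval -0.10 to 0.34) and 0.24 in non-Tfh cells (95% interval 0.03 to 0.46), with adjusted p = 0.618 and 0.416. Per kilobase, Cdkn2d made up 73.5% of the INK4 pair in Tfh cells with empty vector and 80.1% with Bach2, and 84.0% and 87.9% in the non-Tfh groups (means, n = 2).

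BTG and Tob genes. Btg1 (ENSMUSG00000036478; chromosome 10, 96617006 to 96622809, plus strand) had the highest mean per kilobase of exon of the 10 genes over all 8 libraries. In non-Tfh cells with empty vector Btg2 was above it (135 against 122 CPM per kb). In Tfh cells with empty vector the mean of Cdkn2d was above it (108 against 103 CPM per kb), with overlapping libraries. Tfh libraries held 537 and 546 CPM of Btg1 with empty vector and 739 and 785 CPM with Bach2. Non-Tfh libraries held 662 and 621 CPM with empty vector and 873 and 908 CPM with Bach2. No library with Bach2 overlapped a library of the same cell type with empty vector.

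Btg1 rose by 0.49 on the log2 scale in Tfh (SE 0.0768, adjusted p = 0.00919), and by 0.47 in the non-Tfh libraries (SE 0.0766, adjusted p = 0.00949). The difference between these effects was 0.02 (95% interval -0.21 to 0.25, adjusted p = 0.998). Averaged over the cell types it was 0.48 (SE 0.0542, adjusted p = 0.000465), which ranked 10 among all genes and passed in 13 of 13 alternatives. Within a cell type the call was less firm: adjusted p in Tfh cells was 0.0670 without EV_TFH replicate 2 and 0.0668 without Bach2_TFH replicate 2. In non-Tfh cells it was 0.0681 and 0.173 without replicates 1 and 2 of the empty vector libraries and 0.0936 without replicate 2 of those with Bach2, and over all alternatives adjusted p reached from 5.40e-06 to 0.173.

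Tfh cells had less Btg1 than the non-Tfh cells of the same vector: the log2 fold change was -0.24 with empty vector (SE 0.0768, adjusted p = 0.0355) and -0.22 with Bach2 (SE 0.0764, adjusted p = 0.0455). These small differences passed in 8 of 14 and 5 of 14 alternatives. With empty vector the call was lost without any 1 of the 4 libraries compared or of the 2 non-Tfh libraries with Bach2, with adjusted p up to 0.224 (without replicate 1 of EV_nonTFH). With Bach2 it was lost without any 1 library except replicate 2 of EV_TFH, with adjusted p up to 0.221 (without replicate 2 of Bach2_nonTFH). The like-named copies Btg1-ps1 and Btg1-ps2 had 0 counts in all 8 libraries.

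The Btg1 window is printed because the gene rose in both cell types (RefSeq, GRCm38.p6, plus strand), with the forkhead core in capitals.
Btg1, chr10:96616751-96617050: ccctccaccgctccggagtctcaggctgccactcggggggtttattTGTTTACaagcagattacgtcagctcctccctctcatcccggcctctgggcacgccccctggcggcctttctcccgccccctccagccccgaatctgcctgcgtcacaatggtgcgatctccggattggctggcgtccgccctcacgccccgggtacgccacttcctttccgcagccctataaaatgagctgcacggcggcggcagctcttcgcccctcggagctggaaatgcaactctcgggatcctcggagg
It held the forkhead core, read as GTAAACA on the other strand, at position -204. No other window of the 10 genes held that core, and none of the 11 windows, which covered 9 of the 10 genes, held TGANTCA. Rb1 had no window.

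Btg2 (ENSMUSG00000020423; chromosome 1, 134075170 to 134079120), a relative of Btg1 that p53 is also known to induce, was at 269 and 267 CPM in Tfh libraries with empty vector and at 349 and 335 CPM with Bach2. Non-Tfh libraries held 364 and 377 CPM with empty vector and 383 and 427 CPM with Bach2. The 2 groups did not overlap in either cell type, but the gap in non-Tfh cells was small. Bach2 raised Btg2 by 0.35 on the log2 scale in Tfh (SE 0.0808, adjusted p = 0.0435), and the estimate was 0.13 in non-Tfh cells (95% interval -0.04 to 0.30, adjusted p = 0.637), and the difference between these was 0.22 (95% interval -0.02 to 0.47, adjusted p = 0.998). The rise in Tfh cells passed in 6 of 14 alternatives, with adjusted p from 0.00405 to 0.258, and was lost without any 1 of the 6 Tfh or empty vector libraries, the highest value coming without EV_TFH replicate 2. Averaged over the cell types the rise was 0.24 (SE 0.0569, adjusted p = 0.0272), which passed in 6 of 13 alternatives and reached an adjusted p of 0.142 without Bach2_nonTFH replicate 2. Between the cell types Btg2 was lower in Tfh by -0.47 with empty vector (SE 0.0807, adjusted p = 0.000794), in 14 of 14 alternatives. With Bach2 it was lower by -0.24 (SE 0.0802, adjusted p = 0.0402), in 7 of 14 alternatives, and that call was lost without either replicate of Tfh with Bach2 (adjusted p = 0.0741 and 0.149), replicate 2 of non-Tfh with Bach2 (adjusted p = 0.306) or either replicate of non-Tfh with empty vector (adjusted p = 0.0625 and 0.0618).

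Tob1 (ENSMUSG00000037573, chromosome 11, 94211454 to 94215495) is a negative regulator of T cell activation. Among Btg1, Btg2, Tob1 and Tob2 it had the widest cell type gap. Tfh libraries with empty vector held 28.2 and 31.1 CPM, against 66.3 and 63.9 CPM in non-Tfh libraries. With Bach2 the values were 35.0 and 43.0 CPM in Tfh and 51.1 and 56.6 CPM in non-Tfh cells. Within each cell type the Bach2 and empty vector libraries did not overlap, and the Bach2 libraries were the higher in Tfh and the lower in non-Tfh cells.

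With empty vector, Tob1 was lower in Tfh cells, at -1.14 on the log2 scale (SE 0.134, adjusted p = 3.09e-05, in 14 of 14 alternatives), and with Bach2 it stood at -0.47 (SE 0.132, adjusted p = 0.0185). The second call was lost without replicate 1 of the Tfh (adjusted p = 0.139) or replicate 2 of the non-Tfh libraries with Bach2 (adjusted p = 0.129), within a range of 0.00739 to 0.139 over 14 alternatives. The Bach2 effect was 0.40 in Tfh (SE 0.136, adjusted p = 0.164) and -0.27 in non-Tfh cells (SE 0.128, adjusted p = 0.489), neither past the threshold. The difference between these effects was 0.67 (95% interval 0.27 to 1.07), with an unadjusted p of 0.00309 by edgeR's test and an adjusted p of 0.657 over all genes. The difference did not pass in any of 13 alternatives, where adjusted p was 0.183 at its lowest.

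Tob2 (chromosome 15, 81848272 to 81858796), the paralog of Tob1, ranged from 67.8 to 93.6 CPM. Tfh libraries held 71.7 and 67.8 CPM with empty vector and 93.6 and 82.0 CPM with Bach2, a log2 fold change of 0.33 (95% interval 0.10 to 0.56, adjusted p = 0.143). Non-Tfh libraries held 79.2 and 74.1 CPM with empty vector and 81.1 and 91.2 CPM with Bach2 (0.17, 95% interval -0.06 to 0.40, adjusted p = 0.651). The groups did not overlap in either cell type, and the mean effect of 0.25 missed the threshold (SE 0.0764, adjusted p = 0.0758). A transcript annotated on the opposite strand (Gm49476) overlaps 289 bases of Tob2 exons, so reads from it could count as Tob2. The levels of the 2 Tob genes per kilobase were small beside those of Btg1 and Btg2, which made up 86.3% to 90.1% of the 4-gene sum in a library. That sum was 224 ± 0.967 CPM per kb in Tfh cells with empty vector and 299 ± 3.85 with Bach2, and 297 ± 3.55 and 353 ± 18.7 in non-Tfh cells (SD, n = 2).

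**Figure D2:**
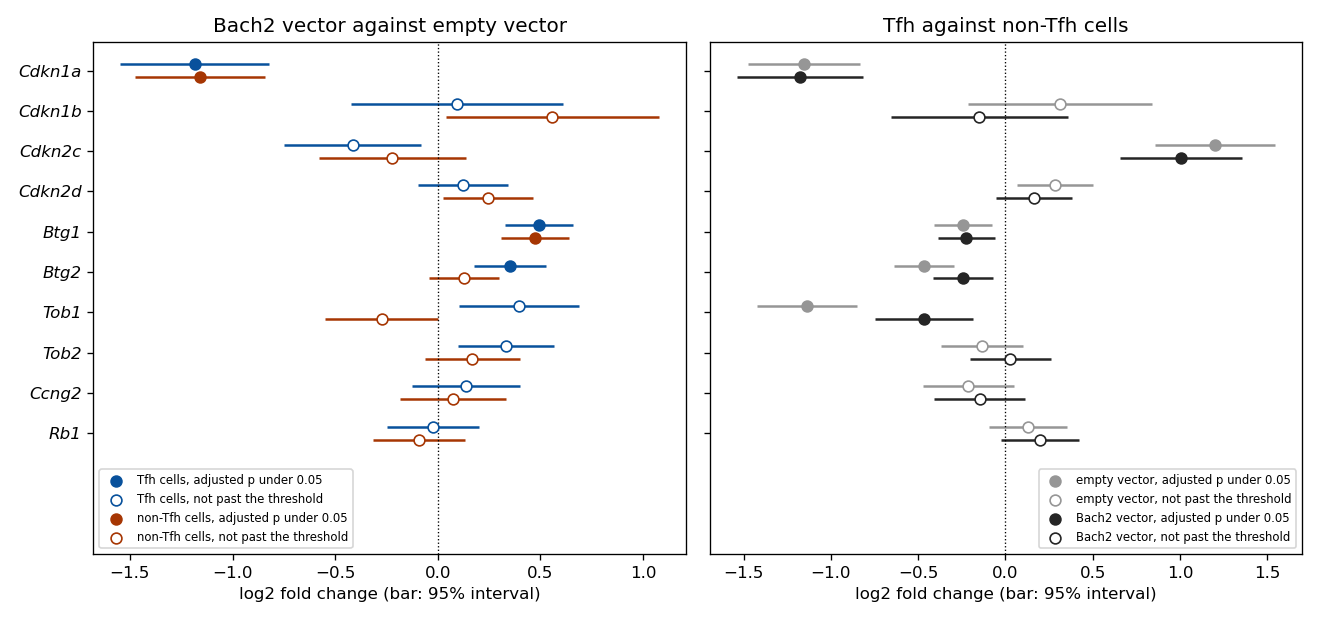
Estimated log2 fold change of each gene (x axis) with its 95% interval (bar), for Bach2 against empty vector (left) and Tfh against non-Tfh cells (right); filled points passed an adjusted p of 0.05 and open points did not. Cdkn1a sits between -1.18 and -1.15 in all 4 comparisons, and Tob1 is the gene whose Bach2 estimates point in opposite directions (0.40 and -0.27) with the widest gap between them.

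Ccng2 and Rb1. Ccng2 (chromosome 5, 93267257 to 93276231), which encodes cyclin G2, a cyclin found in cells leaving the cycle and a known forkhead target, ranged from 121 to 167 CPM. Rb1 (chromosome 14, 73183673 to 73325822), the pocket protein on which INK4 and Cip/Kip inhibitors act in the end, ranged from 76.4 to 99.6 CPM. The Bach2 effect on Ccng2 was 0.14 in Tfh (95% interval -0.12 to 0.40) and 0.07 in non-Tfh cells (95% interval -0.18 to 0.33). That on Rb1 was -0.02 in Tfh (95% interval -0.25 to 0.20) and -0.09 in non-Tfh cells (95% interval -0.32 to 0.13). The adjusted p ran from 0.645 to 0.944 over the 4 values. Rb1 exons overlap those of Rcbtb2 (488 bases) and Lpar6 (408 bases) on the other strand. Its counts may therefore hold reads of both or lack reads of its own.

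Compared per kilobase of exon over all 8 libraries, Btg1 (134 CPM per kb), Btg2 (126) and Cdkn2d (104) were the most abundant of the 10 genes, above at least 95.9% of the 11381 tested genes with a length. Ccng2 (26.8), Cdkn2c (24.8) and Tob1 (20.5) came next, then Rb1 (14.6) and Tob2 (12.02). Cdkn1a (6.88 CPM per kb) was at percentile 48.5 and Cdkn1b (2.63) at 28.5.

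**Figure D3:**
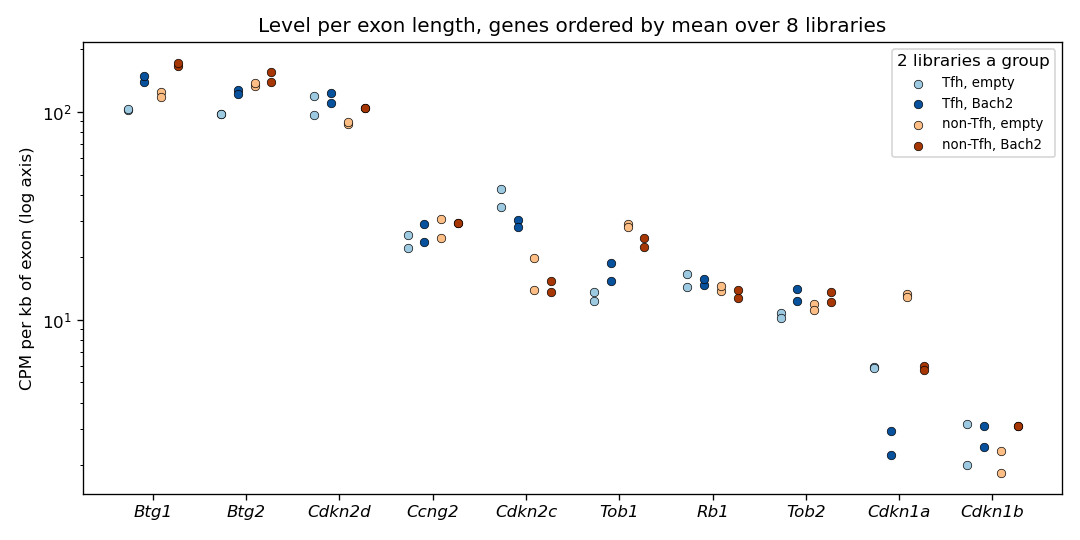
Level per kilobase of annotated exon (y axis, log scale) of the 10 genes, ordered by their mean; each point is a library, coloured by group. Btg1, Btg2 and Cdkn2d sit near or above 100 CPM per kb, and Cdkn1b, at a mean of 2.63, is the lowest.

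Set against the background, 3 of 10 genes passed the threshold for Bach2 against empty vector in Tfh cells (2 rose, 1 fell), where 1.71% of all tested genes did (0.549% rose and 1.16% fell). In non-Tfh cells it was 2 of 10 (1 rose, 1 fell) against 0.871% (0.253% rose and 0.619% fell). For the mean of both cell types it was 3 of 10 (2 rose, 1 fell) against 5.27% (2.37% rose and 2.9% fell). For Tfh against non-Tfh cells it was 5 of 10 with empty vector against 21.9% (10.6% higher and 11.3% lower), and 5 of 10 with Bach2 against 24.4% (11.6% higher and 12.7% lower), in each case 1 higher and 4 lower. Groups did not overlap for 6 of 10 genes (Bach2 in Tfh) and 7 of 10 (Bach2 in non-Tfh), beside 44.6% and 42.2% of all tested genes. Between cell types they did not overlap for 7 of 10 with empty vector and 8 of 10 with Bach2, beside 62.2% and 59.8%.

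The median log2 fold change of the 10 genes was 0.13 in Tfh and 0.10 in non-Tfh cells after Bach2, beside -0.000538 and 0.000724 over all tested genes. For the difference between the vector effects, 0 of 10 genes passed in edgeR's test, 1 (Tob1) had an unadjusted p under 0.05, and DESeq2 called 0. Over all 11475 genes that test called 0, with 539 at an unadjusted p under 0.05, and DESeq2 called 6.

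The rest of the cell cycle network was described from 9 lists of genes. In Tfh cells with Bach2, 8 of 12 cyclins and kinases of S phase, G2 and mitosis fell and 0 rose, with a median log2 fold change of -0.61. Aurkb, a mitotic kinase, fell from 75.4 ± 14.1 to 40.4 ± 0.796 CPM (SD, n = 2; -0.90, adjusted p = 0.0104), and Ccnb1, the mitotic cyclin, from 102.9 ± 9.69 to 62.9 ± 9.13 CPM (-0.71, adjusted p = 0.0105). Among 12 proliferation markers 8 fell and 0 rose (median -0.52), among them Rrm2, the nucleotide reductase subunit (-0.87, adjusted p = 0.0288). These counts rested on 2 libraries: without EV_TFH replicate 2 they became 1 and 1, and without Bach2_TFH replicate 2 they became 2 and 2, while the medians stayed between -0.80 and -0.42 for the first list and between -0.59 and -0.47 for the second over the 8 fits with a library left out. The first list also became 4 without Bach2_TFH replicate 1 or EV_nonTFH replicate 2, and 1 of its genes rose in 3 of the 8 fits. In non-Tfh cells edgeR called 0 of 12 in each of these lists (medians -0.12 and -0.13, 1 and 2 genes at an unadjusted p under 0.05, and 0 by DESeq2), and 0 of either list passed for the difference between cell types, where 7 and 9 had an unadjusted p under 0.05 and DESeq2 called 0. The fall of Cdkn1a and the rise of Btg1 in Tfh cells thus stood beside lower division genes. In non-Tfh cells neither list had a call, but only 1 and 0 of 12 estimates were above 0. For the mean of both cell types 6 and 9 of 12 were called lower and 0 higher. Whether a lower share of dividing cells takes part in the values of the 10 genes was not tested.

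For Tfh against non-Tfh with Bach2, 8 of 12 S, G2 and M genes (median -0.49) and 10 of 12 proliferation markers (median -0.57) were lower in Tfh cells, with 0 and 1 higher. With empty vector it was 3 lower and 0 higher (median -0.16), and 3 lower and 1 higher (median -0.15). With a library left out the lower genes numbered 5 to 9 and 9 to 11 with Bach2, and 0 to 3 and 0 to 4 with empty vector. These values stand beside the cell type differences of Cdkn1a, Btg1, Btg2, Tob1 and Cdkn2c, and their part in them was not tested.

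Of 11 tested G1 cyclins and kinases, 2 fell in Tfh cells with Bach2. These were the E cyclins, whose kinase p21 and p27 inhibit: Ccne2 went from 27.4 ± 5.11 to 13.3 ± 1.17 CPM (-1.04, SE 0.186, adjusted p = 0.0174) and Ccne1 from 57.3 ± 4.14 to 38.4 ± 0.238 CPM (-0.58, SE 0.116, adjusted p = 0.0227). In the list of pocket proteins, E2F and DREAM subunits 3 of 18 fell, namely Mybl2 (-1.17), the repressor gene E2f8 (-0.80) and Tfdp1, the partner of E2F (-0.39). None of these 5 falls passed without EV_TFH replicate 2 or without Bach2_TFH replicate 2, and the 2 of the E cyclins also failed without Bach2_TFH replicate 1. Of the 8 fits with a library left out, Mybl2 passed in 6, Ccne1, Ccne2 and E2f8 in 5 each, and Tfdp1 in 3, with adjusted p up to 0.340 for Tfdp1. The D cyclin gene Ccnd3, partner of the kinases that INK4 proteins block, was lower in Tfh cells with either vector (191 ± 1.29 against 425 ± 20.5 CPM with empty vector; -1.15, SE 0.081, adjusted p = 3.45e-07). Rbl2, the pocket protein p130, was lower as well (-0.41, adjusted p = 0.00225), and Cdk2 was higher with empty vector (0.52, adjusted p = 0.00521).

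The CCR4-NOT and PAN deadenylase genes, through which BTG and Tob proteins act, had 0 of 16 past the threshold by edgeR in each vector comparison (3 and 1 at an unadjusted p under 0.05 in Tfh and non-Tfh, 0 by DESeq2), with medians of 0.02 and 0.05. For the mean of both cell types 1 rose, the catalytic subunit gene Cnot6l (0.25, SE 0.0578, adjusted p = 0.0245), in 2 of the 8 fits with a library left out. A list of 10 ubiquitin ligase genes, drawn up for the ligases that degrade p27 and p21, had 1 fall in Tfh cells with Bach2. This was Cks1b, which helps Skp2 to bind p27 (62.3 ± 6.87 to 39.0 ± 0.205 CPM, -0.67, adjusted p = 0.0178). The call was also lost without EV_TFH or Bach2_TFH replicate 2.

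Among 12 tested transcription factors and regulators known to act on the 10 genes, 1 rose in Tfh cells with Bach2, the forkhead gene Foxo1 (213.5 ± 2.62 to 286 ± 13.6 CPM; 0.42, adjusted p = 0.0178), which passed in 4 of the 8 fits with a library left out, the 4 lost ones being those without a Tfh library. In non-Tfh cells edgeR called 0 (3 at an unadjusted p under 0.05, 0 by DESeq2). Trp53 was estimated at -0.10 in Tfh and 0.07 in non-Tfh cells, neither past the threshold. Of 18 tested p53 target genes other than Cdkn1a and Btg2, edgeR called 0 in Tfh cells with Bach2 (2 at an unadjusted p under 0.05, 0 by DESeq2). The median of this list after Bach2 was -0.11 in Tfh and -0.12 in non-Tfh cells, with 5 and 2 of 18 estimates above 0. In non-Tfh cells 1 fell, Plk3 (86.0 ± 5.19 to 55.1 ± 0.275 CPM; -0.64, adjusted p = 0.00782), a call lost without EV_nonTFH replicate 2 or Bach2_nonTFH replicate 2. Between cell types with empty vector this list went both ways, with 3 higher in Tfh (Gadd45a at 2.34 and Fas at 1.70 among them) and 6 lower (Plk2 at -1.88 and Pmaip1 at -1.68 among them). The 6 became 2 without EV_TFH replicate 1 and 3 without EV_nonTFH replicate 2, while the 4 named genes passed in all 8 fits with a library left out. Myc, which is known to repress Cdkn1a, was lower in Tfh cells with empty vector (24.8 ± 2.48 against 73.0 ± 4.85 CPM, -1.56, adjusted p = 3.38e-05). With Bach2 Myc was lower in Tfh cells as well, at -2.30 to -1.70 over the 8 fits with a library left out. Whether p53 or Myc takes part in the values of the 10 genes was not tested.

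**Figure D4:**
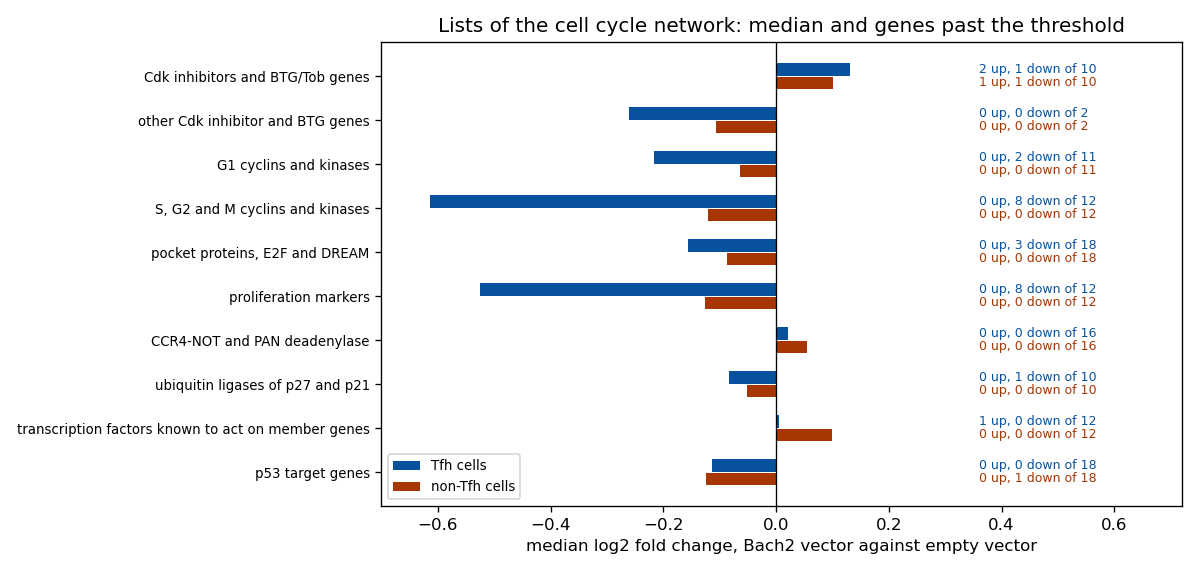
Median log2 fold change (x axis) after Bach2 of the 10 genes and of 9 lists of the cell cycle network, in Tfh (blue) and non-Tfh cells (brown); the text beside each bar counts genes past the threshold in each direction. The 2 longest bars, both in Tfh cells, are the S, G2 and M list (-0.61) and the proliferation markers (-0.52), while the 10 genes have a median of 0.13.

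Other genes named as Cdk inhibitors or BTG genes were scarce. Of 6 further Cdk inhibitor and BTG genes, 4 (Cdkn1c, Cdkn2a, Cdkn2b and Btg4) did not pass the filter on low counts, with between 0 and 53 counts over all 8 libraries. Btg3 was lower in Tfh cells (-1.23 with empty vector, adjusted p = 0.0133, in 6 of the 8 fits with a library left out). Cdkn3, a phosphatase of cyclin-dependent kinases, was lower in Tfh cells with Bach2 (-0.75, adjusted p = 0.0207). With a library left out this estimate lay between -0.94 and -0.59. Cdkn3 also fell after Bach2 in the mean of both cell types (-0.55, adjusted p = 0.0487), at -0.66 to -0.41 with a library left out. Neither call held in all of these fits.

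The genes whose log2 CPM ran most like those of the 10 were found by Pearson correlation over the 8 libraries, which share the same 4 groups, so that any gene with the same order of groups scores high. Nearest to Cdkn1a were Prelid1 (r = 0.991), Lcp1 (0.985) and Ebpl (0.984). Nearest to Cdkn2c were Cd68 (0.986, at 0.873 to 9.36 CPM), Il3ra (0.981) and Spint1 (0.980), the last with at most 1.52 CPM. For Btg1 they were Rasal3 (0.981), Ccser2 (0.980) and Map3k4 (0.974), and for Btg2 Pglyrp1 (0.978), Gga1 (0.978) and Ttc7b (0.978). For Tob1 they were Itgb7 (0.986), Fli1 (0.985) and S1pr4 (0.984). For the other 5 genes the best correlation lay between 0.953 and 0.978.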

How the data were processed

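The 8 files hold counts as deposited, 1 whole number per Ensembl gene and library. Per the labels' protocols, RNA went through Smart-Seq v4, Nextera XT and paired-end sequencing on a NextSeq500; per the submitters' processing notes, the authors used TopHat2, Bowtie2 and featureCounts on GRCm38/mm10. The sources used here do not give versions, the annotation release or the multi-mapping rules. Symbols, positions and union exon lengths came from GENCODE M21, which held 37693 of the 39179 IDs. The other 1486 IDs, with at most 0.205% of any library, were kept. From the deposited counts, CPM and tests were computed with edgeR 4.0.16 (R 4.3.3): TMM factors (0.985 to 1.01), filterByExpr (minimum count 10, minimum total 15), 1 coefficient per group over 8 libraries (4 residual degrees of freedom), robust quasi-likelihood F-tests, and Benjamini-Hochberg adjustment over 11475 genes with a threshold of 0.05. The fit was also run on counts with known changes, simulated from its own dispersions with independent libraries. Such counts cannot test for dependence between libraries. Intervals are 95%. DESeq2 1.42.0, other scaling, no filter, a non-robust fit, fewer groups, a replicate block and 1 library left out were alternatives; the counts of calls in the lists were run with a library left out after seeing the data. The 10 genes and the lists were chosen with earlier results of these data known. Genes named from a list are those past the threshold, at most 4 by size of change; Trp53 was named after its values were seen. Windows are RefSeq, GRCm38.p6, matched by symbol. An exact test of 2 libraries against 2 cannot reach 0.05, so only the model across genes was used.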

Additional observations from a re-analysis of the deposited data

How the results depend on the processing

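No called change of the 10 genes reversed its direction in any alternative, and 0 of the 10 passed for the difference between vector effects in all of them. Leaving out 1 library gave 1 to 3 calls among the 10 for Bach2 in Tfh cells, 1 to 2 in non-Tfh cells, 2 to 3 for the mean of both, and 4 to 5 (empty vector) and 2 to 5 (Bach2) for Tfh against non-Tfh. Fitting only the groups compared left 3 of the 5 calls between cell types with Bach2, since Btg1 and Btg2 were lost (adjusted p = 0.0777 and 0.0814). With no filter the mean effect had 5 calls against 3 (Tob2 and Cdkn2c were added). The cause was not tested for these or the counts below.
Over all genes, the 196 calls for Bach2 in Tfh cells became 316 with DESeq2, 736 with no filter and 15 to 237 with a library left out, the fewest without EV_TFH replicate 2 (15) and Bach2_TFH replicate 2 (36). The 100 in non-Tfh cells became 332 with no filter and 14 to 127 with a library left out, with 28 and 14 without EV_nonTFH replicates 1 and 2 and 66 and 41 without Bach2_nonTFH replicates 1 and 2. The 605 for the mean became 1255 with no filter and 152 to 758 with a library left out, and the 0 for the difference became 6 with DESeq2, 37 with no filter and 0 to 1. The 2515 and 2796 calls between cell types became 1340 to 2688 and 1916 to 2715 with a library left out. A library left out leaves its group with 1 sample, which is assumed to vary like the others.
Libraries with the same replicate number share only that number as far as the labels say: their deviations from the group means correlated at -0.00413 to 0.240 over the 6 pairs of groups. The highest values, 0.208 and 0.240, were those of Tfh and non-Tfh libraries of the same vector. The replicate block joined all libraries of a number, and a pairing within each vector alone was not fitted. With the replicate block, 473 (Bach2, Tfh), 207 (Bach2, non-Tfh), 975 (mean) and 3 (difference) genes were called. Of the 10 genes it added Cdkn2d between cell types with empty vector (0.28, adjusted p = 0.0354) and lost none. Another scaling moved the median of all genes by at most 0.00661. Depth limits Cdkn1b (72 to 143 counts) and Cdkn1a (66 to 435 counts) most.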
